A study of Homo sapiens with 3 samples.

Results

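Genes for basic helix-loop-helix (bHLH) transcription factors outside the core clock were examined for occupancy by CRY1, a cryptochrome that represses the clock activators. The cells were C4-2, an established human line of castration-resistant prostate cancer. The genes were a named list of 49, of 20162 protein-coding genes in all, and fell into 6 families: MYC/MAX/MXD (13 genes), TFE/USF/SREBF (8), bHLH-PAS (12), HES/HEY (9), E proteins (3) and ID (4). Chromatin immunoprecipitation sequencing (ChIP-seq) was carried out on 2 replicate CRY1 immunoprecipitates (Veh 1 and Veh 2) and 1 library of input chromatin, all from C4-2 cells held in hormone-proficient medium for 24 hours before harvest. Every library was labelled Veh, and the paper describes the cells as vehicle treated. No other treatment and no cells lacking CRY1 were analysed here, so every comparison below is between genes in a single condition of a single line. The replicates were combined by the authors before peaks were called, leaving 1 list of 2551 peaks. No value below therefore has a replicate error, no library has a value of its own, and the read depth is unknown. A peak list carries no expression, so the labelled cell type could not be checked against its markers.

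bHLH factors bind DNA as dimers at E-boxes, short sites of the form CANNTG. The palindrome CACGTG is read by CLOCK with BMAL1 and also by MYC, MAX, USF, TFE and SREBF proteins, so clock proteins and many of the factors considered here share a site. In the results below, E-box means CACGTG only, and a summit said to have none can still have another CANNTG. CRY1 is a coregulator that in the clock acts on CLOCK and BMAL1, and which factor brought it to the summits below was not tested. HIF and AHR proteins belong to the bHLH-PAS class, as CLOCK does, and with their partner ARNT they read the cores ACGTG and GCGTG. HES and HEY proteins are repressors that carry the Notch signal, while ID proteins lack a DNA-binding region and hold E proteins away from DNA. The question addressed was which of these genes had CRY1 at their own regulatory sequence.

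Sequences at the summits, the bases of highest read pileup, are given first for the genes that carry the results. Each line is the plus strand of GRCh37, 50 bp to each side of a summit. The first set holds an E-box summit of each of 8 genes, and capitals mark CACGTG.
HIF1A, chr14:62161909-62162009: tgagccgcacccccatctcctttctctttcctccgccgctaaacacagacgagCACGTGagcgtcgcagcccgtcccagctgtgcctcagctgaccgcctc
MAX, chr14:65569561-65569661: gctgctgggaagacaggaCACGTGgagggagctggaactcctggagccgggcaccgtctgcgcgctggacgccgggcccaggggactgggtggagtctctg
MXD3, chr5:176739234-176739334: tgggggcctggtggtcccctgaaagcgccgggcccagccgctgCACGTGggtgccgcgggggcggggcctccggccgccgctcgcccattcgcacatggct
MLXIP, chr12:122516268-122516368: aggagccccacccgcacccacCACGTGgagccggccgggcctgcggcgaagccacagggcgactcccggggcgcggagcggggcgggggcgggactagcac
MGA, chr15:41954088-41954188: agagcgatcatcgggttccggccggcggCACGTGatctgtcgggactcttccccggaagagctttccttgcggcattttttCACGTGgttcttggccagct
SREBF1, chr17:17739742-17739842: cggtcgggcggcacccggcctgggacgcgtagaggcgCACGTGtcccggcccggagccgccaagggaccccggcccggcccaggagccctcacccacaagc
HES1, chr3:193852841-193852941: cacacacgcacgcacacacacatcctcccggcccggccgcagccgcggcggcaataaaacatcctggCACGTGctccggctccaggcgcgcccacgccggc
HES6, chr2:239147776-239147876: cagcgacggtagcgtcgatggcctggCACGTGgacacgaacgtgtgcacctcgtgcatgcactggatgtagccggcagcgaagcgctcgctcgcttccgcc

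The next pair shows 2 strong summits with no CACGTG in the same window, the strongest of MNT and the one closest to the HES1 start site. Capitals mark ACGTG or GCGTG on either strand, and the HES1 window holds neither.
MNT, chr17:2295922-2296022: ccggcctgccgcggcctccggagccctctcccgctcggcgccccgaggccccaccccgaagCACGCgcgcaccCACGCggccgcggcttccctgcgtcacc
HES1, chr3:193853679-193853779: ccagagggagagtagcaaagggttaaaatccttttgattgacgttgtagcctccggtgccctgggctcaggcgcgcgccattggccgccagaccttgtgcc

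A summit lay within 5 kb of an annotated transcription start site (TSS) of 13 of the 49 genes (26.5%), against 8.22% of protein-coding genes (1657 of 20162). These were MAX, MXD3, MXI1, MNT, MLXIP and MGA of the MYC/MAX/MXD family, SREBF1 and SREBF2, the bHLH-PAS genes HIF1A and SIM2, and HES1, HES4 and HES6. The MYC/MAX/MXD family held 6 of 13 (46.2%), HES/HEY 3 of 9 (33.3%), TFE/USF/SREBF 2 of 8 (25%) and bHLH-PAS 2 of 12 (16.7%), whereas E proteins held 0 of 3 and ID genes 0 of 4. In families of this size a single gene moves the share by many percentage points, and no difference between families was tested. For 12 of the 49 genes the summit was within 1 kb (24.5%, against 6.66% of protein-coding genes). With 1 canonical transcript per gene the count was 11, without MLXIP, which has no transcript so tagged, and SREBF2, against 6.81%.

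**Figure D1:**
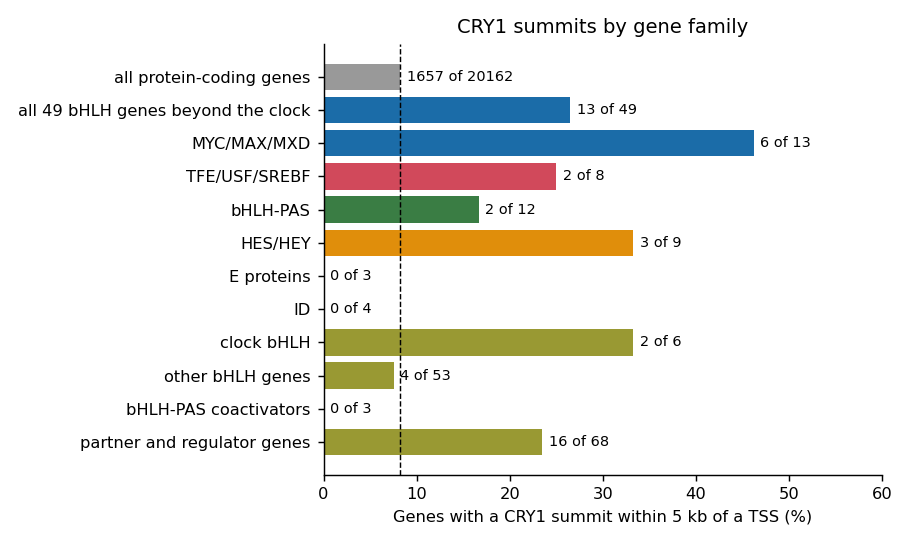
Percent of genes with a CRY1 summit within 5 kb of an annotated TSS (x axis) for all protein-coding genes, the 49 bHLH factor genes, their 6 families and 4 further groups of genes. Bars start at 0, the text beside each bar gives the count, and the dashed line marks the 8.22% of all protein-coding genes; the MYC/MAX/MXD bar reaches 46.2% and the E protein and ID bars are at 0.

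The 49 genes had a median of 8 distinct annotated TSS, against 5 for all protein-coding genes, and each further start adds a place at which a summit is counted. The median was 9 for the 13 genes with a summit and 7.5 for the 36 without, and over all protein-coding genes it was 8 and 5. Their promoters were also rich in G and C. In the 300 bases from 250 before the canonical TSS to 50 after it, the median was 71.0% for the 49 genes and 63.7% for all protein-coding genes, and it was 70.7% for the 36 genes without a summit. The part of TSS number and base composition in the share of bound genes was not tested.

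A summit lay within 50 kb of the gene body of 18 of the 49 genes (36.7%), against 22.1% of protein-coding genes. The wider distance added MLX, ARNT, AHRR, HES2 and TCF3, with 8 summits in all, and for 7 of the 8 the nearest protein-coding TSS belonged to another gene. These other genes were NAGLU beside MLX, SETDB1 beside ARNT, EXOC3 beside AHRR, ACOT7 beside HES2 and MEX3D beside TCF3. The remaining summit lay 19.9 kb upstream of TCF3, with a fold enrichment of 5.52 and 2 E-boxes within 50 bp. Neither distance reached a summit for 31 of the 49 genes. The median distance from a TSS to the nearest summit was 259 kb for the 49 genes and 288 kb for all protein-coding genes, and 61.2% of the 49 lay beyond 100 kb, against 69.9%.

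**Figure D2:**
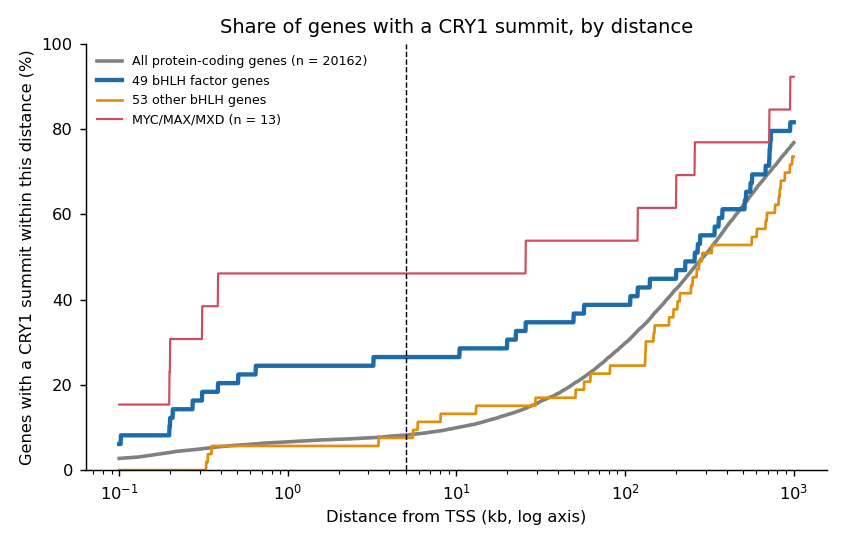
Percent of genes (y axis) with a CRY1 summit within a given distance of any annotated TSS (x axis, kb, log scale) for all protein-coding genes, the 49 bHLH factor genes, the 13 MYC/MAX/MXD genes and 53 other bHLH genes. At the dashed line at 5 kb the 49 genes stand at 26.5% and all protein-coding genes at 8.22%, with the MYC/MAX/MXD genes at 46.2%.

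Within the MYC/MAX/MXD family, the bound genes encoded MAX and proteins that pair with MAX or its relative MLX. Genes without a summit within 5 kb encoded such partners as well, and were the 3 MYC genes, MXD1, MXD4, MLXIPL and MLX itself. MAX, the obligate partner of MYC, had a peak at chr14:65569549-65569994 with a fold enrichment of 5.85, the authors' linear ratio of the summit pileup over background. Its summit lay 198 bp upstream of the nearest TSS, with an E-box 30 bp away. A weaker peak (3.56) with an E-box lay in an intron of MAX, 5.76 kb from a TSS and so just outside the limit. MXD3, a MAX partner that recruits SIN3 corepressors, had a peak at chr5:176738908-176739497 with a fold enrichment of 8.25. That summit lay 385 bp upstream of the canonical TSS and 5 bp from an E-box.

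MXI1, an antagonist of MYC that pairs with MAX, had 5 summits within 5 kb of a TSS, with fold enrichments of 5.01 to 8.71. A pair lay 3363 and 3611 bp downstream of the canonical TSS in an intron. The other 3, including the strongest at chr10:111985882-111986179, lay 18599 to 19487 bp downstream, each within 10 bp of the start of another transcript. They lay in exons of transcripts other than the canonical one, outside the annotated coding sequence. No CACGTG lay within 500 bp of any of the 5, and 2 had the variant CACGTT within 50 bp.

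MNT, a further MAX-binding repressor, had 8 summits within 5 kb of its annotated TSS, the highest number among the 1657 protein-coding genes with a summit and reached by no other. Its strongest peak, at chr17:2295546-2296360, had a fold enrichment of 14.8 and ranked 59 of the list by that value. That summit lay in an intron, 82 bp downstream of the start of another transcript and 8382 bp downstream of the canonical TSS, and had no CACGTG within 500 bp. An E-box was within 50 bp only at the summit 235 bp upstream of the canonical TSS (chr17:2304281-2304943, fold enrichment 7.18). Counted from the canonical TSS, 4 of the 8 summits lay within 5 kb. Each of the 8 had another within 1 kb, so the number counts neighbouring peaks and not separate regions.

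MGA, which carries a T-box and a bHLH region and pairs with MAX, had 4 summits. The strongest, at chr15:41913355-41914218 with a fold enrichment of 8.19, lay 247 bp downstream of the start of a longer transcript and 38624 bp upstream of the canonical TSS, and 42 bp from an E-box. The other 3 (4.46 to 5.60) lay 262 to 1535 bp downstream of the canonical TSS, and the farthest of them had 2 E-boxes. MLXIP, which encodes the glucose-responsive factor MondoA, a partner of MLX, had a weak peak (3.68, rank 2295) at chr12:122516286-122516387, 310 bp upstream of a TSS. It was the only one of the 13 genes lost at a fold enrichment of at least 5.

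For the other genes of this family no summit was near. MYC had its closest summit at 717 kb, MYCN at 4470 kb and MYCL at 259 kb. The distance was 951 kb for MXD1, 200 kb for MXD4 and 119 kb for MLXIPL, which encodes the carbohydrate-responsive factor ChREBP. MLX, the common partner of MLXIP and MLXIPL, had its nearest summit 25.7 kb upstream, 281 bp from a TSS of NAGLU.

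**Figure D3:**
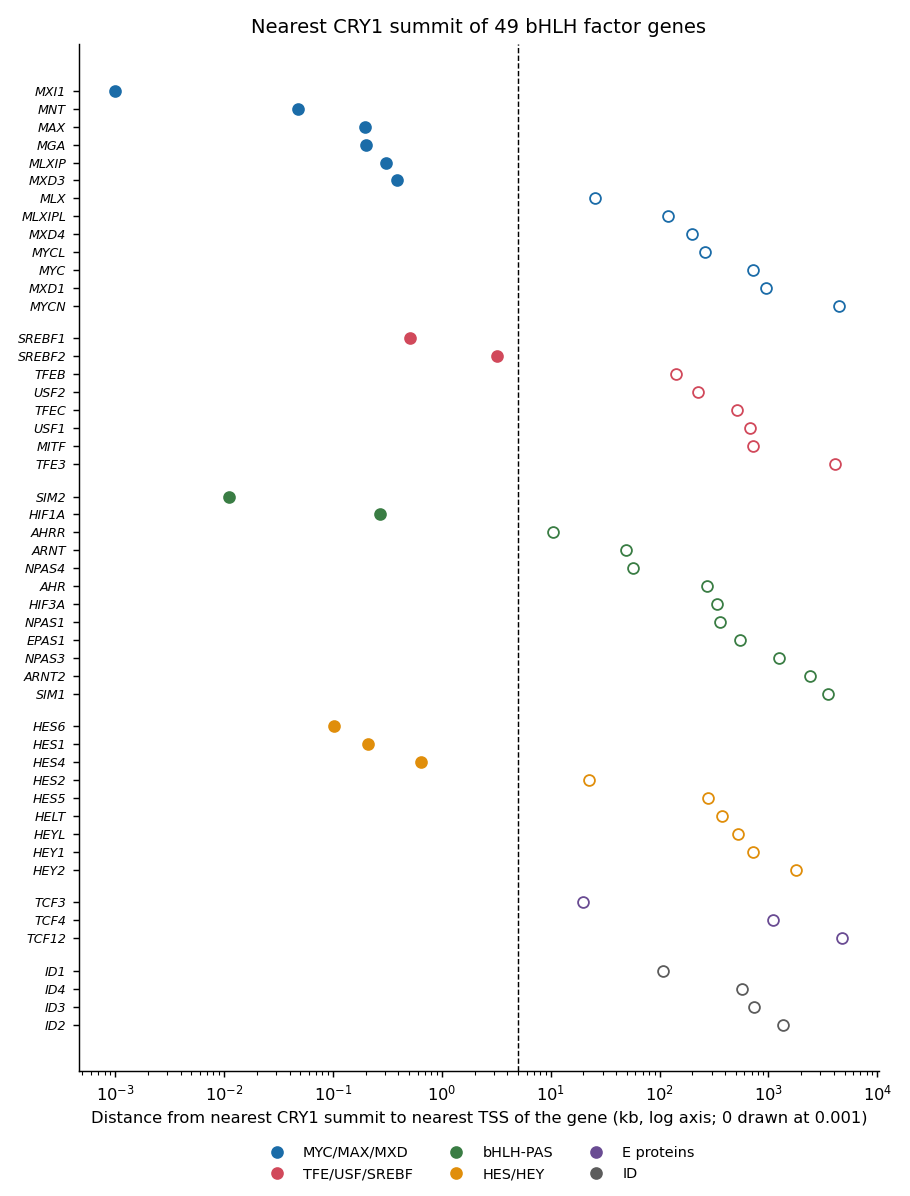
Distance from the nearest CRY1 summit to the nearest annotated TSS (x axis, kb, log scale, with a distance of 0 drawn at the left edge) for each of the 49 genes, coloured by family, with filled points within 5 kb. The farthest filled point is SREBF2 at 3.22 kb and the nearest open point is AHRR at 10.4 kb.

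In the TFE/USF/SREBF family, the 2 sterol factor genes were the members with a summit. SREBF1, an activator of fatty acid synthesis genes, had 4 summits within 5 kb of a TSS. The one with an E-box, at chr17:17739727-17739828 with a fold enrichment of 4.92, lay in an intron 508 bp downstream of the canonical TSS and 11 bp from the E-box. The strongest (6.94) lay 3341 bp upstream of that TSS and had no E-box within 50 bp. The other pair (4.06 and 5.52) lay near the opposite end of the gene, 24399 and 24203 bp downstream. SREBF2, an activator of cholesterol synthesis genes, was counted through an intronic summit (5.96). It lay 3218 bp from the nearest start, that of a retained-intron transcript, and 70196 bp from the canonical TSS. SREBF2 was also counted when only the starts of protein-coding transcripts were used. The nearest summit was 140 kb from TFEB and 228 kb from USF2, and it was 512 kb from TFEC, 681 kb from USF1, 725 kb from MITF and 4090 kb from TFE3.

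HIF1A, the oxygen-regulated subunit of the hypoxia factor, had a fold enrichment of 13.5 (rank 84) at chr14:62161532-62162267, and its −log10 q of 41.1 was the highest of the 34 summits near the 13 genes. The −log10 q is the negative logarithm of the authors' false discovery rate. The summit lay 272 bp upstream of the canonical TSS and 5 bp from an E-box. SIM2, a bHLH-PAS factor of the developing nervous system, had a summit of 7.04 at chr21:38071369-38071828, 30 bp downstream of the canonical TSS in the 5′ UTR and 6 bp from an E-box. ARNT, the partner of HIF1A, and AHRR, the repressor of AHR, were reached only within 50 kb of the gene body, ARNT at 49488 bp. NPAS4, an activity-dependent neuronal factor, lay just outside that limit at 53324 bp. For AHR the nearest summit was 270 kb away, for HIF3A 340 kb, for NPAS1 358 kb and for EPAS1, the paralogue of HIF1A, 552 kb. For NPAS3, ARNT2 and SIM1 it was over 1 Mb away.

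HES1, the Notch-responsive repressor, had 4 summits around its single annotated TSS. The strongest, at chr3:193852349-193853168, had a fold enrichment of 10.3 (rank 194) and lay 1046 bp upstream, 19 bp from an E-box. The summit closest to the TSS (7.88, 208 bp upstream) had no E-box within 500 bp. The other pair (4.11 and 4.88) lay 1862 bp upstream and 1613 bp downstream, the latter in a coding exon, and each had an E-box. HES6, which counteracts HES1, had a summit of 9.49 in a coding exon (chr2:239147472-239147908), 853 bp downstream of the canonical TSS and 22 bp from an E-box, and a second of 6.53 in an intron with none within 50 bp. The gene PER2 lies nearby, and 2 of its CRY1 summits were within 50 kb of HES6, at 46.9 and 48.3 kb upstream.

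HES4 was counted through a peak at chr1:935472-936333 (6.18), 645 bp upstream of its nearest TSS, whose summit was nearer to a TSS of ISG15 (321 bp). Within 50 bp it had CACGTT and no CACGTG, and the nearest CACGTG lay 126 bp from the summit. For the other 33 of the 34 summits the bHLH gene itself had the nearest protein-coding TSS. HES2 had its nearest summit at 22.5 kb, beside ACOT7. No summit was near HES5 (278 kb), HELT (378 kb), HEYL (522 kb), HEY1 (718 kb) or HEY2 (1780 kb).

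Among the E proteins, the broadly expressed partners of tissue-restricted bHLH factors, TCF3 was reached at 19.9 kb, while the nearest summit was 1100 kb from TCF4 and 4780 kb from TCF12, the farthest of the 49 genes. Among the ID genes the nearest summit was 107 kb from ID1, 566 kb from ID4, 731 kb from ID3 and 1360 kb from ID2.

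The 13 genes held 34 summits within 5 kb. A single summit was found at 7 of them (53.8%), against 73.7% of the 1657 protein-coding genes with a summit. MNT, MXI1, MGA, SREBF1 and HES1 had 4 or more (38.5%), against 23 of 1657 (1.39%). Of the 34 summits, 10 lay outside the gene, 15 in an intron and 9 in an exon. Neighbouring peaks can belong to 1 broad region, and merging summits within 1 kb of each other left 20. After merging, none of the genes kept 4 or more. The number per gene was not computed with merged summits for other protein-coding genes, so the share with 4 or more describes unmerged peaks only.

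**Figure D4:**
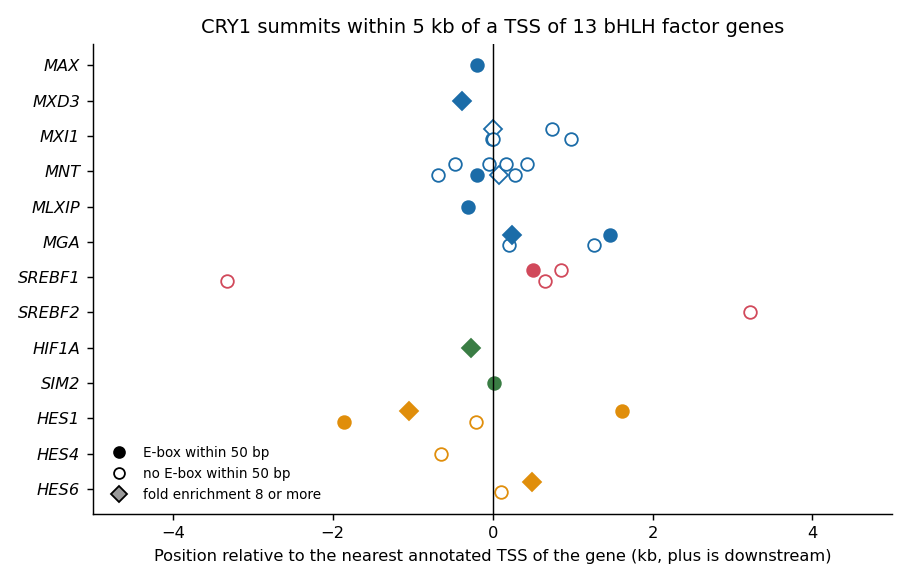
Position of the 34 CRY1 summits relative to the nearest annotated TSS of each of the 13 genes (x axis, kb, positive is downstream). Filled symbols have CACGTG within 50 bp and diamonds a fold enrichment of 8 or more; the other MXI1 summits besides the pair downstream, at offsets of −10, 0 and 5 bp, lie almost on each other, and the outermost points are SREBF1 (3.33 kb upstream) and SREBF2 (3.22 kb downstream).

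The 34 summits had a median fold enrichment of 5.91 (quartiles 5.04 and 7.41, range 3.17 to 14.8). The 1772 summits within 5 kb of any protein-coding TSS had a median of 5.21 (quartiles 4.34 and 6.66). A value of 8 or more was found at 7 of the 34 (20.6%) and at 15.9% of the 1772, and 2 of the 34, those of MNT and HIF1A, were among the 100 strongest of the list. The strongest summit of each gene had a median of 8.19 over the 13 genes and 5.68 over the 1657, and it reached 8 at 7 of 13 (53.8%) and at 21.2%. A gene with more summits has more chances of a strong one. Peak width was a median of 290 bp for the 34 and 186 bp for the 1772.

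**Figure D5:**
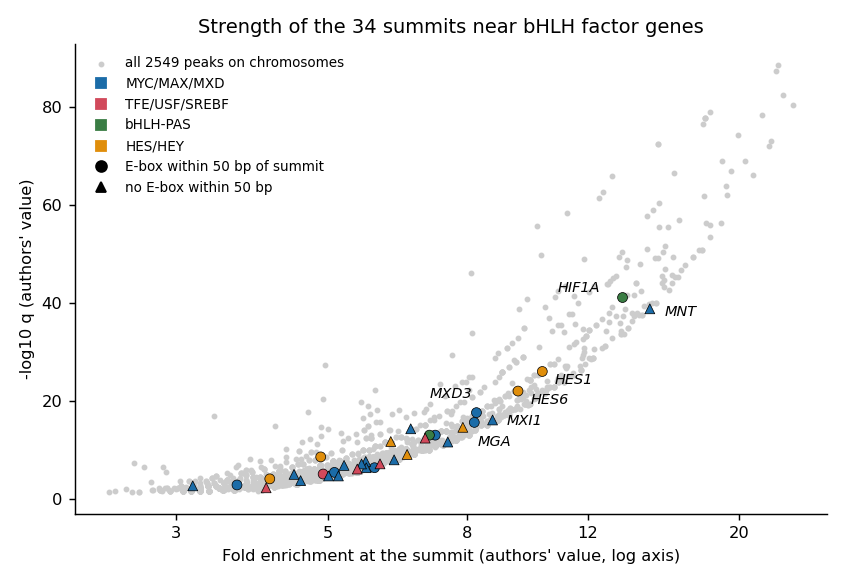
Fold enrichment at the summit (x axis, log scale) against −log10 q (y axis), both the authors' values, for all 2549 peaks on chromosomes (grey) and the 34 summits near bHLH factor genes (coloured by family, circles with an E-box within 50 bp, triangles without). MNT at 14.8 and HIF1A at 13.5 lie farthest right among the coloured points, and 7 of the 34 reach 8.

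CACGTG, a palindrome that reads alike on both strands, was within 50 bp of 13 of the 34 summits (38.2%), against 44.8% of the 1772 summits near a protein-coding TSS and 47.8% of all summits. The order of the shares turned with the way summits were counted: with summits within 1 kb of each other merged it was 12 of 20 (60%), against 53.8% of 1441 merged in the same way, and with canonical transcripts 11 of 22 (50%), against 43.6% of 1490. The share is therefore given with no direction relative to other promoters. By gene, 10 of the 13 (76.9%) had at least 1 summit with CACGTG, all but MXI1, SREBF2 and HES4, against 56.7% of the 1657. A gene with more summits has more chances of one with the site. The median was 1 summit per gene for the 13 and for the 1657, but 38.5% of the 13 had 4 or more, against 1.39%. The E-box lay 5 to 45 bp from the summit, with a median of 19 bp. Summits with it had a median fold enrichment of 7.04 (3.68 to 13.5) and those without 5.69 (3.17 to 14.8). Over the 1772 summits these medians were 5.82 and 4.88.

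Other sites were searched on both strands in the same windows, and overlap with CACGTG was allowed. ACGTG or GCGTG, the cores read by HIF and AHR with ARNT, was at 22 of the 34 (64.7%, against 66.9% of the 1772), and every CACGTG contains the former. The AHR core GCGTG was at 9 (26.5%, against 30.8%). CACGTT was at 4 (11.8%, against 6.26%), and the HES sites CACGCG or CACGAG were at 9 (26.5%, against 19.0%). Some of the CACGTT summits shared the gene MXI1, and several of the HES-site summits lay at MNT or MXI1. The shares of these sites were not counted by gene or with merged summits. CAGCTG or CAGGTG, sites of E proteins, was at 4 (11.8%, against 20.9%), any CANNTG at 22 (64.7%, against 63.3%) and the MITF and TFE site TCACGTGA at 0 (against 1.47%). Of the 14 CACGTG in the windows, 10 read CACGTGG on either strand (71.4%, against 48.9% of 867), a feature looked for after the sequences had been seen.

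In the 300 bases around the canonical TSS, CACGTG was present in 6 of 48 genes (12.5%; MLXIP has no canonical transcript) and in 8.76% of protein-coding genes. MAX, MNT and SIM2 had both this site and a summit, whereas AHR, MLX and MXD4 had the site without a summit within 5 kb. Over all protein-coding genes, 25.3% of those with the site had a summit, against 6.68% of those without.

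Among the 6 clock bHLH genes, 2 had a summit within 5 kb. For these and the further genes below, fold enrichment and E-box are given only for the summit nearest a TSS. Any other summit of the same gene, which may be stronger or have an E-box, is not given. The nearest summit of BHLHE41, a repressor that competes for E-boxes, was one of 7.99 with an E-box, 53 bp upstream of its TSS. That of its paralogue BHLHE40 was one of 4.51 without, 263 bp downstream. For CLOCK, BMAL1, BMAL2 and NPAS2 the nearest summit was 734 to 1170 kb away. Of 53 further bHLH genes, mostly factors of single tissues, 4 had a summit (7.55%), near the 8.22% of protein-coding genes. These were ATOH7 (7.98), BHLHA15 (7.28), TCFL5 (6.18) and MESP2 (3.79), each with an E-box. The 53 genes had a median of 1 annotated TSS. None of the coactivator genes NCOA1, NCOA2 and NCOA3 had one.

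Partners and regulators of the 49 factors were taken as 7 lists of 68 distinct genes, of which 16 (23.5%, against 8.22% of protein-coding genes) had a summit within 5 kb and 28 (41.2%, against 22.1%) within 50 kb of the gene body. Among 13 partners and targets of MYC, MAX and MondoA these were ARRDC4 (10.4, with an E-box) and TXNIP (5.25), both targets of MondoA in glucose sensing, and the corepressor SIN3A (3.68). Among 7 regulators of TFE proteins at the lysosome they were FNIP1 (7.35) and RRAGC (7.65), each with an E-box, and FLCN (2.65). Among 6 regulators of SREBF proteins they were SCAP (4.60), which escorts these proteins from the endoplasmic reticulum, and INSIG1 (4.09), which retains them there. Among 17 Notch and HES partners they were the ligands JAG1 (5.52) and JAG2 (8.46), the receptor NOTCH1 (3.34), the coactivator MAML3 (4.51) and the corepressor TLE3 (5.53, with an E-box). Among 13 genes of BMP signalling to ID they were the receptor BMPR1A (5.35) and the inhibitor SMAD7 (6.53), and among 7 AHR regulators and targets the chaperone HSP90AB1 (4.60). None of 6 HIF regulators, VHL and the prolyl hydroxylases among them, had a summit within 5 kb. The value and E-box of each partner or regulator are again those of the summit nearest a TSS. A gene named without an E-box, or with a low value, may have another summit that differs.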

How the data were processed

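CRY1 ChIP-seq of C4-2 cells comprised 2 immunoprecipitates and 1 input, grouped by their titles. The authors aligned reads to hg19 (GRCh37) with Bowtie2 and called peaks with MACS2 on the combined replicates at q < 0.05; tool names are also in the submitters' processing notes. Use of the input as control is presumed, and handling of duplicates is not given in the sources used here. The deposited list gives per peak a start, end and summit, a fold enrichment (a linear ratio), a score, a −log10 p and a −log10 q. The deposited score equalled the whole part of 10 times the −log10 q in all 2551 peaks. The 2 peaks outside the main chromosomes were left out of results that use the annotation.

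Summits were set against every annotated TSS and gene body of GENCODE release 44 on GRCh37, and the same count over 20162 protein-coding genes served as background. Motifs were counted in 101 bp windows. The members and gene lists were chosen with earlier results of these data known, so no test was run. Named genes were members with a summit by either distance, the 5 next nearest and 3 farthest, and listed partners with a summit within 5 kb; the remaining members were named to account for each. The counting was tested on simulated data. Alternatives changed the peak threshold, position, transcripts, distance and window. Python 3.11.15, pandas 2.3.3, numpy 2.4.6, pysam 0.24.0 and matplotlib 3.10.9 were used.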

Additional observations from a re-analysis of the deposited data

How the results depend on the processing

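Of 34 alternative values of the main results, 27 stayed within the limits set for a change and 7 moved. The limits were wide for counts, 13 and 18 genes being scored alike, while any change in a printed median was scored as moved. The number of genes with a summit within 5 kb of a TSS was 13 and ranged from 11 (canonical transcripts) to 18 (50 kb from a TSS, where the share of protein-coding genes was 20.4%); HES4 was lost when each summit counted only for its nearest protein-coding gene. The 18 genes within 50 kb of the gene body became 11 when the summit had to lie inside the body (6.85% of protein-coding genes). The 13 summits with CACGTG became 5 when the peak midpoint replaced the summit and 22 with 500 bp to each side. Its share of 38.2%, against 44.8% near protein-coding TSS, became 60% against 53.8% with merged summits and 50% against 43.6% with canonical transcripts, and so passed from below to above; in the other 8 alternatives it stayed below. The median fold enrichment of 5.91 became 6.57 with peaks of at least 5, 6.21 with canonical transcripts and 6.59 with summits within 1 kb merged, an alternative chosen after seeing the data. The median −log10 q in its place was 7.8, on another scale. For fold enrichment, the limit of at least 5 raises the median by design, and each merged group took its highest value. Medians of fold enrichment near other promoters were not computed under these alternatives. No replicate could be left out. No paired analysis was possible because MACS2 was run on both immunoprecipitates together and no result comes from a test.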
